A study of Homo sapiens with 6 samples.

Results

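Cholesterol handling was examined in HT-29 cells, a human colorectal adenocarcinoma line, through 32 genes that encode 18 enzymes of synthesis, 4 proteins of sterol sensing by the SREBP system, 5 proteins of uptake and intracellular transport, and 5 proteins of efflux and storage. These genes were picked by name from the 63241 genes listed in the deposited table, by a rule that uses no measured value. Efflux and storage here includes *NR1H3* and *NR1H2*, which encode the liver X receptors, regulators of the exporter genes. Wild type cells given buffer (control, 3 libraries) were compared with wild type cells given 0.5 μM Amuc_0904, an outer membrane protein of the gut bacterium *Akkermansia muciniphila*, for 72 h (Amuc_0904, labelled A904, 3 libraries). RNA-seq asked which transcripts differ between buffer and Amuc_0904, and both groups came from this single tumor line, so neither normal colon nor other cell types of the mucosa were measured.

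Cells make cholesterol from acetyl-CoA, through the mevalonate pathway to farnesyl diphosphate and onward through squalene and lanosterol. The transcription factor SREBP-2, encoded by *SREBF2*, drives the enzymes of this route together with NF-Y when membrane sterol is low, and it is held in the endoplasmic reticulum by SCAP and INSIG proteins when sterol is plentiful. The liver X receptors, encoded by *NR1H3* and *NR1H2*, act in the other direction, since oxysterols activate them to switch on the exporters *ABCA1* and *ABCG1* and the ubiquitin ligase *MYLIP*, which marks lipoprotein receptors for degradation. Intestinal epithelial cells are known for doing both, and those of the small intestine also take up dietary cholesterol through NPC1L1.

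Values are TPM, in which each gene is scaled by its length and each library to the same total. No counts were given, so depth and counting error are unknown. The labels and methods are silent on whether replicates came from separate cultures, and the spread behind each p may thus be technical. Amuc_0904 replicate 1 stood apart: on the first principal component of all tested genes it lay at −4.79, between the controls (−13.0 to −12.4) and the other 2 treated libraries (20.4 and 22.8). On the second component it lay at 22.7, outside the range of all other libraries (−15.3 to 2.78). The summed level of 10 epithelial markers was 7230 to 7274 TPM in the controls and 7235 to 8051 TPM with Amuc_0904, with 8 of the 10 at 1 TPM or more in every library. The summed level of 5 immune markers was 10.1 to 16.0 and 9.2 to 14.0 TPM, with *CD3E* listed at 0, and that of 8 stromal and endothelial markers was 3.05 to 3.55 and 3.24 to 3.84 TPM, with *COL1A2* and *CDH5* listed at 0. In a bulk sample, fewer cells of a type and less RNA per cell cannot be told apart.

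With Amuc_0904, the cholesterol exporter *ABCG1* fell, and it was the 1 gene of the 32 that passed an adjusted p under 0.05. No gene of the 32 rose by that test. The efflux and storage genes all had lower means with Amuc_0904, with a median log2 difference of −0.33 over 5 genes, while 13 of 18 synthesis enzymes had higher means, with a median of 0.04 (*FDFT1*, *MSMO1* and *SC5D* turned lower with quantile normalization, and *MSMO1* and *SC5D* also when TPM was rescaled without mitochondrial genome genes). Over all 14333 tested genes, 7225 had higher means and 7108 lower. The 2 treated libraries other than replicate 1 held more transcript of most mevalonate enzymes than any control, whereas replicate 1 held less.

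Of the 32 genes, 31 were at 1 TPM or more in at least 3 libraries and were tested as log2(TPM + 1) with limma among 14333 genes. *NPC1L1*, the absorption transporter, lay between 0 and 0.13 TPM in all 6 libraries and was not tested. At an adjusted p under 0.05, 0.0698% of all tested genes rose and 0.167% fell, against 0 and 1 of the 31. At an unadjusted p under 0.05, 2 of the 31 were higher (*ACAT2* and *SQLE*) and 8 were lower, where 9.95% of all tested genes were higher and 5.87% lower. Those 8, *TM7SF2*, *INSIG1*, *LPIN1*, *MYLIP*, *ABCA1*, *ABCG1*, *NR1H3* and *SOAT1*, were also the genes whose 3 treated libraries all lay below the 3 controls. For none of the 31 did all treated libraries lie above all controls. Over all tested genes the groups did not overlap, with Amuc_0904 higher, in 13.4%, and with Amuc_0904 lower, in 7.59%. The median log2 difference was −0.02 over the 31 genes and 0.00147 over all tested genes. The plot of every gene by library shows this pattern, with the treated libraries split over the synthesis enzymes and together on the left for the exporters.

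**Figure D1:**
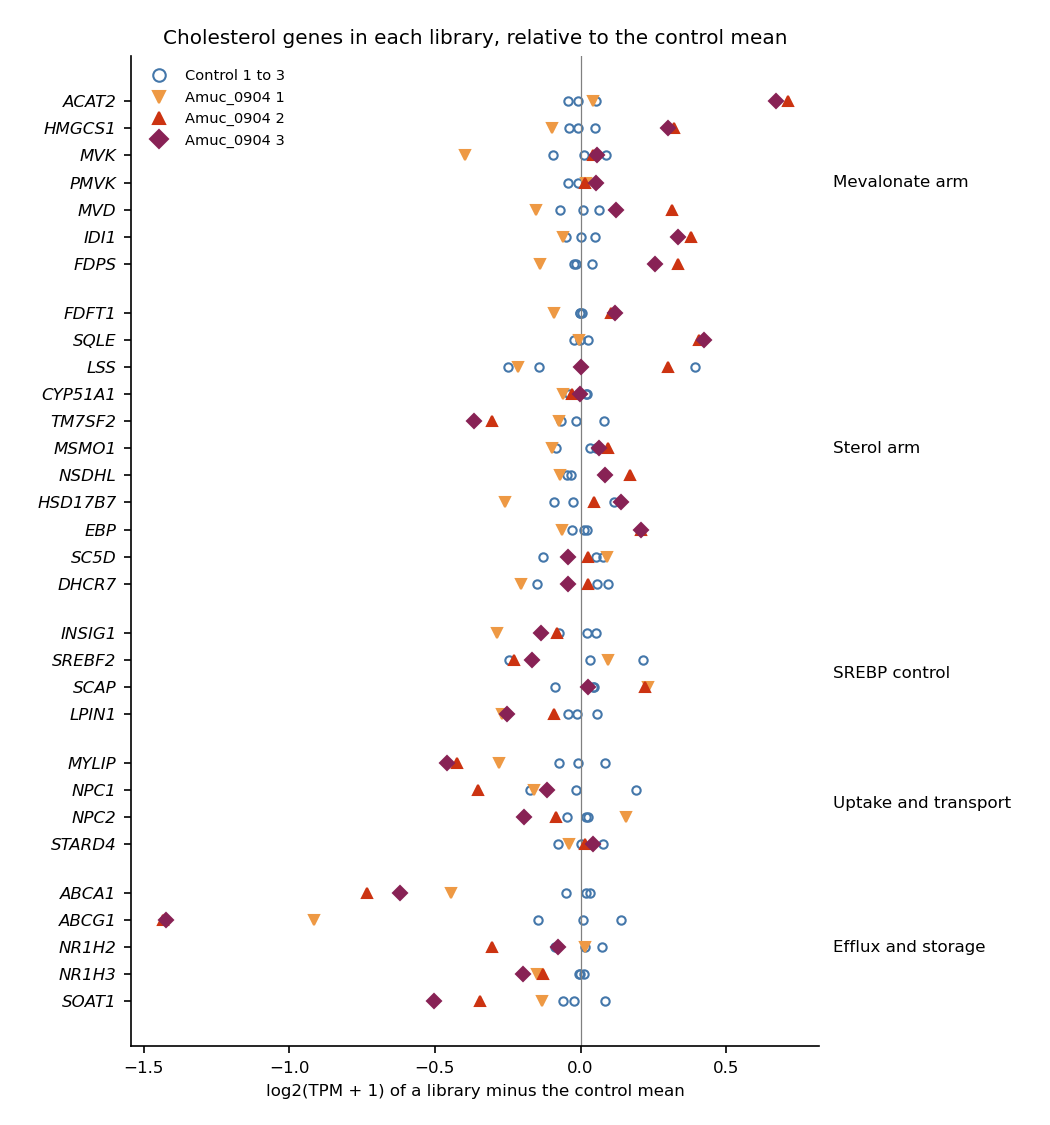
Level of each of the 31 tested cholesterol genes in each library, as log2(TPM + 1) minus the mean of the 3 controls (horizontal axis), grouped by role. Open circles are the controls, and filled symbols are Amuc_0904 replicates 1, 2 and 3. The 3 treated libraries lie left of every control for *ABCG1* (−0.92, −1.44 and −1.42), while for *ACAT2* replicate 1 lies at 0.04 among the controls and replicates 2 and 3 lie at 0.71 and 0.67.

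The mevalonate arm runs from acetyl-CoA to farnesyl diphosphate. *ACAT2*, the cytosolic thiolase that joins acetyl-CoA units, measured 52.5, 49.1 and 50.3 TPM in the controls and 52.2, 83.5 and 81.2 TPM in Amuc_0904 replicates 1, 2 and 3. Replicate 1 lay among the controls and replicates 2 and 3 above them, so the groups overlapped. The mean was 50.6 ± 1.74 TPM (SD, n = 3) in the controls and 72.3 ± 17.4 TPM with Amuc_0904, a log2 difference of 0.47 (standard error 0.17) that did not pass (limma adjusted p = 0.270). *ACAT2* overlaps other genes on the opposite strand, and shares 397 exon bases with 1 of them, *TCP1*, a chaperonin subunit gene, whose mean was 131.2 TPM in the controls and 155.9 TPM with Amuc_0904. The overlaps of *ACAT2* with the others are longer, at 1141 and 1458 exon bases. The 1141 bases are shared with a protein-coding gene for which no level was matched, so its share of reads is unknown. The 1458 bases are shared with a long noncoding RNA gene, at a mean of 0.32 TPM in the controls and 0.3 TPM with Amuc_0904. Whether the counting used strand is not stated, so reads in the shared stretches could belong to either strand.

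*HMGCS1*, which condenses acetoacetyl-CoA with acetyl-CoA to HMG-CoA, measured 74.5, 79.2 and 76.1 TPM in the controls and 71.5, 95.9 and 94.4 TPM in the treated libraries. Replicate 1 was the lowest of the 6 libraries and replicates 2 and 3 were the highest (log2 difference 0.17, standard error 0.11, limma adjusted p = 0.477). *IDI1*, which isomerizes isopentenyl diphosphate, had the same shape, with 96.6, 93.2 and 99.8 TPM in the controls and 92.6, 125.8 and 122.0 TPM with Amuc_0904 (log2 difference 0.22, limma adjusted p = 0.394). *FDPS*, which builds farnesyl diphosphate, had the highest level of the 32 genes, at 209.5, 208.4 and 217.5 TPM in the controls and 192.2, 267.4 and 253.0 TPM in the treated libraries. Its treated mean was 237.5 ± 39.9 TPM against 211.8 ± 4.99 TPM, and its log2 difference of 0.15 did not pass (limma adjusted p = 0.561).

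The 3 enzymes between HMG-CoA and isopentenyl diphosphate that belong to this set differed less. *MVD*, mevalonate diphosphate decarboxylase, measured 25.3, 26.4 and 24.0 TPM in the controls and 22.6, 31.6 and 27.5 TPM with Amuc_0904. Replicate 1 was again the lowest library and replicates 2 and 3 the highest (log2 difference 0.09, limma adjusted p = 0.724). *MVK*, mevalonate kinase, was the 1 gene of this arm with a lower treated mean, from 11.8, 10.3 and 11.1 TPM in the controls to 8.15, 11.4 and 11.5 TPM, and only replicate 1 lay outside the control range (log2 difference −0.10, limma adjusted p = 0.752). *MVK* shares 306 exon bases with *MMAB*, on the opposite strand, which had a mean of 37.3 TPM in the controls and 42.9 TPM with Amuc_0904. *PMVK*, phosphomevalonate kinase, lay between 30.4 and 32.5 TPM in all 6 libraries.

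Summed over the 7 mevalonate genes, the level was 502.7, 496.8 and 510.0 TPM in the controls and 470.9, 647.1 and 622.1 TPM in Amuc_0904 replicates 1, 2 and 3. In replicates 2 and 3, 5 of the 7 genes lay above all controls and 0 below, while in replicate 1, 0 lay above and 5 below. Over all tested genes, 42.1%, 31.3% and 30.6% lay above all controls in replicates 1, 2 and 3, and 16.0%, 37.9% and 39.1% below. Relative to the control mean, the median log2 difference of the 7 genes was −0.10 in replicate 1, 0.32 in replicate 2 and 0.26 in replicate 3. The same median over all tested genes was 0.06, −0.02 and −0.03.

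The sterol arm carries farnesyl diphosphate to cholesterol. *SQLE*, squalene epoxidase, which adds oxygen to squalene and is a control point of this arm, measured 111.8, 114.1 and 110.2 TPM in the controls and 111.5, 149.0 and 150.4 TPM with Amuc_0904. Replicate 1 lay within the control range and replicates 2 and 3 well above it, as for *ACAT2* (log2 difference 0.27, standard error 0.11, limma adjusted p = 0.307). *FDFT1*, squalene synthase, was very even in the controls at 123.4, 122.8 and 122.9 TPM, and measured 115.4, 132.3 and 133.5 TPM in the treated libraries. *EBP*, the sterol isomerase that shifts a ring double bond, measured 61.5, 62.1 and 59.8 TPM in the controls and 58.4, 70.7 and 70.7 TPM with Amuc_0904. In both genes replicate 1 was the lowest library and replicates 2 and 3 were the highest, and neither passed (log2 difference 0.04 and 0.12, limma adjusted p = 0.777 and 0.510).

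*TM7SF2*, a sterol reductase that acts after lanosterol demethylation, went the other way. It measured 34.0, 30.6 and 31.7 TPM in the controls and 30.4, 25.8 and 24.6 TPM in the treated libraries, which did not overlap, although replicate 1 lay just below the lowest control. Its log2 difference was −0.25 (standard error 0.09, limma adjusted p = 0.270). It was the 1 synthesis enzyme of 18 whose groups did not overlap.

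The other 7 sterol enzymes had log2 differences between −0.07 and 0.06, all with overlapping groups. *CYP51A1*, lanosterol demethylase, lay between 70.8 and 75.1 TPM in all 6 libraries. *MSMO1* and *NSDHL*, which remove the methyl groups at carbon 4, lay between 42.6 and 48.9 TPM and between 37.5 and 44.5 TPM, and *HSD17B7*, the ketoreductase of the same complex, between 13.5 and 18.0 TPM. *SC5D*, the desaturase of the B ring, lay between 43.4 and 50.7 TPM, and *DHCR7*, a reductase of the last steps, between 77.5 and 95.6 TPM. *LSS*, which cyclizes oxidosqualene to lanosterol, spread from 13.6 to 21.8 TPM within the controls alone, more than its 2 group means differed (16.7 ± 4.45 and 16.9 ± 3.23 TPM). A pseudogene, *HSD17B7P2*, had a mean of 1.90 TPM in the controls and 2.21 TPM with Amuc_0904 and may share reads with *HSD17B7*.

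**Figure D2:**
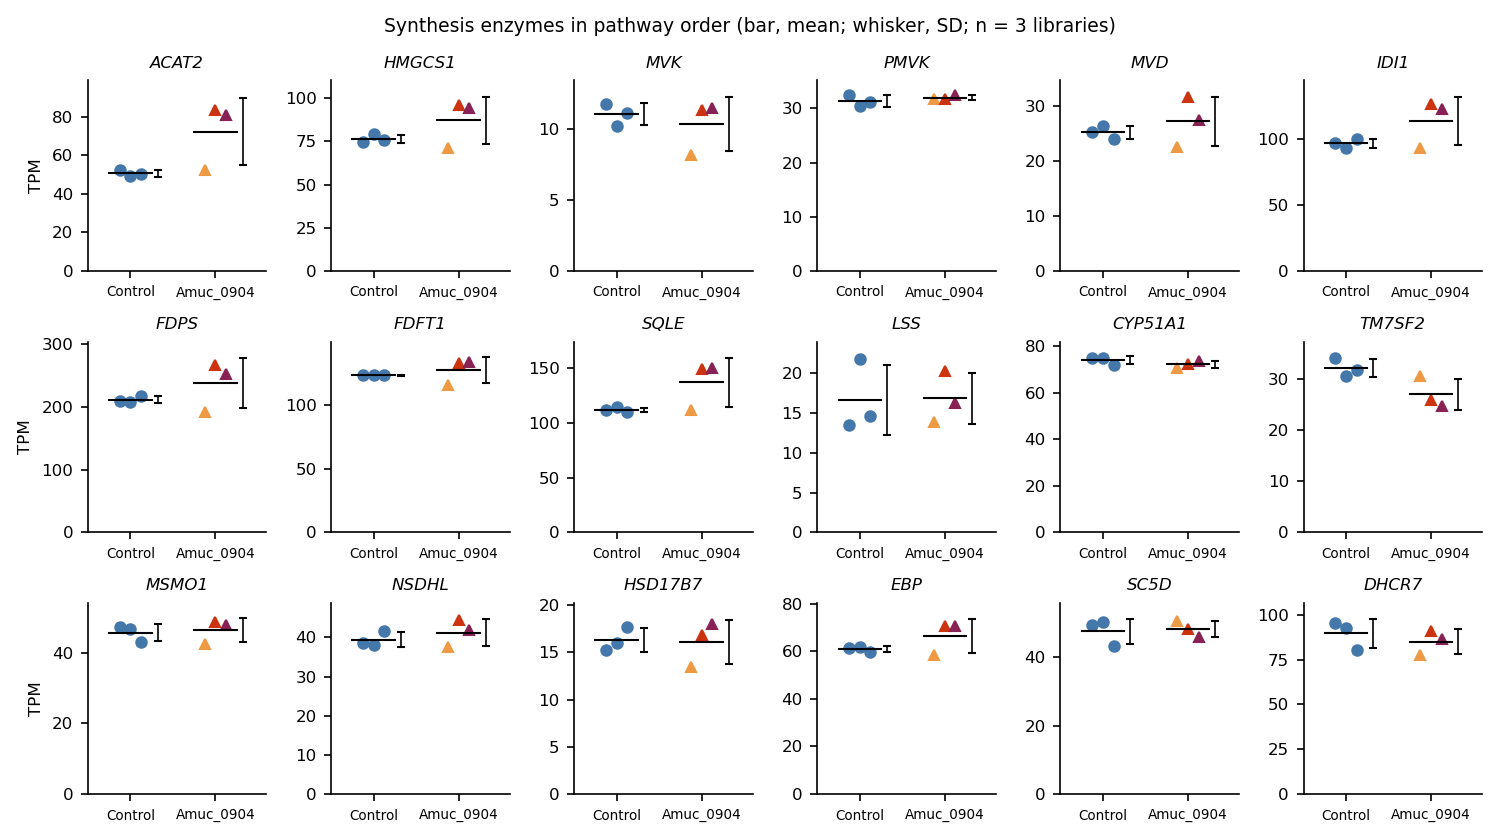
TPM of the 18 synthesis enzymes in each library, in pathway order from *ACAT2* to *DHCR7*, with each vertical axis starting at 0. Circles are controls, triangles are Amuc_0904 replicates 1, 2 and 3 from left to right, bars are means and whiskers are SD over 3 libraries. In *ACAT2*, *HMGCS1*, *IDI1*, *FDPS* and *SQLE* replicate 1 sits at or below the controls while replicates 2 and 3 sit above them.

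Over the 18 synthesis enzymes together, the summed level was 1168.0, 1167.4 and 1147.5 TPM in the controls, and 1093.1, 1367.1 and 1332.2 TPM in Amuc_0904 replicates 1, 2 and 3. Replicate 1 held the lowest sum of the 6 libraries and replicates 2 and 3 the highest. Gene by gene, 13 of 18 enzymes in replicate 1 lay below all 3 controls and 1 above. In replicate 2, 10 lay above and 1 below, and in replicate 3, 11 lay above and 1 below. Over all tested genes, 42.1% lay above and 16.0% below all controls in replicate 1, 31.3% and 37.9% in replicate 2, and 30.6% and 39.1% in replicate 3. Replicates 2 and 3 also had less transcript from the mitochondrial genome, 10.6% and 11.1% of TPM against 12.8% to 13.5% in the controls and 13.0% in replicate 1. Their sums of epithelial markers were the highest, 8051 and 8039 TPM, through *KRT8* and *KRT18* above all, while *EPCAM* (546.1 and 545.8 TPM) and *CLDN7* (143.9 and 142.1 TPM) lay below all controls there. The part of these in the result was not tested.

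The promoters of the synthesis genes were read from RefSeq (GRCh38.p14) in windows from 250 bases before to 50 bases after each start, for which 28 of the 32 genes had an entry (*ACAT2*, *SQLE*, *FDFT1* and *ABCG1* had none). The NF-Y box, CCAAT on either strand, was found in 13 of 15 synthesis enzymes and 21 of the 28 genes, where 39.7% of all 27305 genes with an entry hold it. The promoters of *HMGCS1* and *FDPS* are shown because both genes lay above every control in replicates 2 and 3, a choice made after their values were seen. The *HMGCS1* window is chr5:43313363-43313662 on the minus strand, and the *FDPS* window is chr1:155308616-155308915 on the plus strand. Capitals mark CCAAT, or ATTGG where it lies on the other strand, which lies from −155 to −151 and from −100 to −96 relative to the start in *HMGCS1*, and begins at −176, −122 and −51 in *FDPS*.
HMGCS1 promoter: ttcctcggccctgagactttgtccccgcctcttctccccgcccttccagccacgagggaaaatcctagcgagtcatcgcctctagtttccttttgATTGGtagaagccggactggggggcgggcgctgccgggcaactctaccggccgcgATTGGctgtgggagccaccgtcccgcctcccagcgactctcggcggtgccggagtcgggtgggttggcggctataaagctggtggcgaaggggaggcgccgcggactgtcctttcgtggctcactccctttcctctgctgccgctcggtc
FDPS promoter: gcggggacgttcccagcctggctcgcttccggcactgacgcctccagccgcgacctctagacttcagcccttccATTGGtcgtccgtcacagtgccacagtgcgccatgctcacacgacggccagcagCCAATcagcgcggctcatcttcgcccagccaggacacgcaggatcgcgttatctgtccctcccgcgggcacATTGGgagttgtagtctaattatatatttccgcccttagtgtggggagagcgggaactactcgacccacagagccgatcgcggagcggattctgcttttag

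SREBP control concerns the factor that drives these enzymes. *INSIG1*, which retains SCAP in the endoplasmic reticulum and is itself a target of SREBP-2, measured 82.1, 80.3 and 75.2 TPM in the controls and 64.7, 74.7 and 71.9 TPM with Amuc_0904. All 3 treated libraries lay below all controls, replicate 1 the farthest, and the gap between replicate 2 and the lowest control was small (log2 difference −0.17, standard error 0.07, limma adjusted p = 0.302). *LPIN1*, a phosphatidate phosphatase that also restrains nuclear SREBP, measured 8.63, 8.42 and 9.09 TPM in the controls and 7.06, 8.12 and 7.14 TPM in the treated libraries, again without overlap (log2 difference −0.20, limma adjusted p = 0.307). *SREBF2* itself ranged from 29.9 to 41.4 TPM among the controls and from 30.2 to 38.1 TPM among the treated libraries, which lay inside that range. *SCAP*, the escort that carries SREBP to the Golgi, had the 1 higher mean of this group, with 12.0, 12.0 and 10.9 TPM in the controls and 13.8, 13.7 and 11.8 TPM with Amuc_0904 (log2 difference 0.16, limma adjusted p = 0.405). The median log2 difference of the 4 genes was −0.09, −0.09 and −0.15 in Amuc_0904 replicates 1, 2 and 3.

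Of the 28 genes with a promoter window, *SREBF2* alone held TCACNCCAC, the core of a sterol regulatory element, where 1.39% of all genes with an entry hold it, and its window is shown for this reason. It is chr22:41832855-41833154 on the plus strand. Capitals mark the element, which lies from −133 to −125 relative to the start, and an NF-Y box on the other strand from −106 to −102. Absence of these letters from a window says nothing of binding elsewhere.
SREBF2 promoter: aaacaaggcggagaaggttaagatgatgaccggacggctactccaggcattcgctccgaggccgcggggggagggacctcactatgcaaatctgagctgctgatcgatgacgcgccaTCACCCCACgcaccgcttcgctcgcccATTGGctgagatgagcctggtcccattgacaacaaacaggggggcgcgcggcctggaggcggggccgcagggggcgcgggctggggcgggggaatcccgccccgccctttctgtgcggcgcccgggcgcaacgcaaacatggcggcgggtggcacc

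Among the 4 tested genes of uptake and transport, *MYLIP* stood lowest relative to the controls. This ubiquitin ligase, which lowers lipoprotein uptake, measured 13.0, 12.1 and 11.5 TPM in the controls and 9.88, 8.84 and 8.61 TPM with Amuc_0904. The groups did not overlap, and replicate 1 was the treated library nearest to the controls. The mean was 12.2 ± 0.725 TPM in the controls and 9.11 ± 0.677 TPM with Amuc_0904, a log2 difference of −0.39 (standard error 0.08) that did not pass (limma adjusted p = 0.193).

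*NPC1* and *NPC2*, which hand cholesterol out of the lysosome, did not separate. *NPC1* measured 13.0, 11.2 and 9.88 TPM in the controls and 9.99, 8.61 and 10.3 TPM with Amuc_0904, so 2 of the treated libraries lay inside the control range. It shares 604 exon bases with *RMC1* on the opposite strand, at 12.5 and 13.5 TPM. *NPC2* measured 130.0, 136.6 and 135.9 TPM in the controls and 149.7, 126.5 and 117.2 TPM in the treated libraries, with replicate 1 the highest of the 6 and replicates 2 and 3 the lowest. *STARD4*, a soluble carrier that moves cholesterol to the endoplasmic reticulum, lay between 23.6 and 26.3 TPM throughout, with group means of 24.9 and 25.0 TPM.

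Efflux and storage held the gene that passed. *ABCG1*, which loads cholesterol onto high-density lipoprotein, lies on chr21:42199689-42297244 on the plus strand (GENCODE, GRCh38) and measured 14.0, 15.4 and 12.4 TPM in the controls and 6.88, 4.50 and 4.55 TPM in Amuc_0904 replicates 1, 2 and 3. All treated libraries lay below all controls, with replicate 1 the nearest to them. Its mean fell from 13.9 ± 1.46 TPM to 5.31 ± 1.36 TPM (SD, n = 3), so that the control mean was 2.62 times the treated mean. The log2 difference was −1.26 (standard error 0.16, 95% interval −1.62 to −0.89, limma adjusted p = 0.0347). The call was held in 7 of 14 alternative settings, with adjusted p from 0.00109 to 0.189 in limma, and was lost when any one of the 3 controls or Amuc_0904 replicate 2 or 3 was left out, when no filter on low values was used and with a replicate block (adjusted p = 0.0778). Its log2 difference was negative in all 14.

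*ABCA1*, which loads cholesterol onto lipid-poor apolipoprotein A-I, was low in these cells, at 1.68, 1.70 and 1.55 TPM in the controls and 0.94, 0.59 and 0.72 TPM with Amuc_0904. The groups did not overlap, with all treated libraries under 1 TPM and all controls above it. The control mean was 2.19 times the treated mean (1.64 ± 0.0815 and 0.75 ± 0.177 TPM). On the log2(TPM + 1) scale, which understates the change of genes this low, the difference was −0.60 (standard error 0.14) and did not pass (limma adjusted p = 0.215). With 0.1 added to TPM in place of 1, the difference was −1.06 and did not pass either (limma adjusted p = 0.233).

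*NR1H3* and *NR1H2*, the 2 liver X receptors, were both expressed. *NR1H3* measured 90.1, 90.9 and 89.8 TPM in the controls and 81.4, 82.5 and 78.7 TPM in the treated libraries, a difference that was small and without overlap (log2 difference −0.16, standard error 0.04, limma adjusted p = 0.238). It shares 189 exon bases with *ACP2* on the opposite strand, which had a mean of 31.3 TPM in the controls and 25.4 TPM with Amuc_0904. *NR1H2* measured 57.9, 53.8 and 60.2 TPM in the controls and 57.8, 46.2 and 54.1 TPM with Amuc_0904, and its groups overlapped (log2 difference −0.12, limma adjusted p = 0.535). *SOAT1*, which esterifies cholesterol for storage in lipid droplets, measured 4.15, 4.54 and 4.01 TPM in the controls and 3.77, 3.12 and 2.69 TPM in the treated libraries. It did not overlap, and replicate 1 lay nearest to the controls (log2 difference −0.33, standard error 0.12, limma adjusted p = 0.282).

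**Figure D3:**
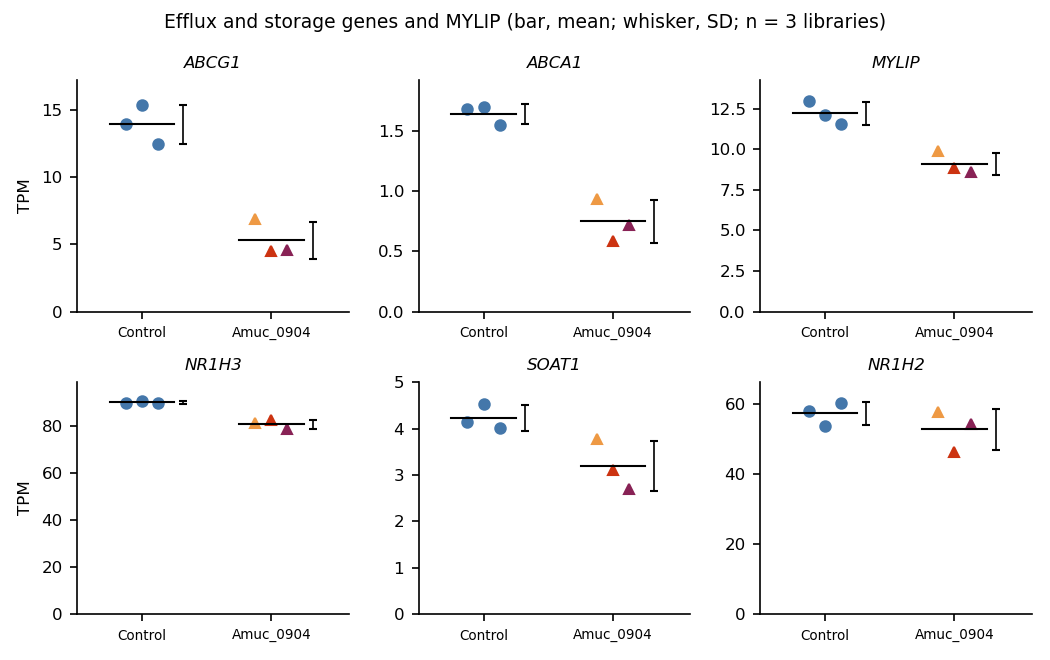
TPM of the 5 efflux and storage genes and of *MYLIP* in each library, with each vertical axis starting at 0. Circles are controls, triangles are Amuc_0904 replicates 1, 2 and 3 from left to right, bars are means and whiskers are SD over 3 libraries. Treated libraries lie below all controls in *ABCG1*, *ABCA1*, *MYLIP*, *NR1H3* and *SOAT1*, and overlap them in *NR1H2*.

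As a group, efflux and storage did not split by library as the synthesis enzymes did. Of the 5 genes, 4 lay below all controls in replicate 1, 5 in replicate 2 and 4 in replicate 3, and 0 lay above. Over all tested genes, 16.0%, 37.9% and 39.1% lay below all controls in replicates 1, 2 and 3, and 42.1%, 31.3% and 30.6% above. The summed level of the 5 genes was 167.8, 166.3 and 168.0 TPM in the controls and 150.8, 136.9 and 140.8 TPM with Amuc_0904. Most of this sum came from the receptor genes *NR1H3* (mean 90.27 TPM in the controls, 80.85 TPM with Amuc_0904) and *NR1H2* (57.3 and 52.7 TPM). It is thus not a level of the exporters. The median log2 difference of the 5 genes from the control mean was −0.15 in replicate 1, −0.34 in replicate 2 and −0.50 in replicate 3. *SOAT1* was lowest in replicate 3 and *ABCA1* in replicate 2.

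A direct repeat of GGTNA with 5 bases between the copies (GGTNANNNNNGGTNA), the form to which liver X receptors are known to bind, was searched on both strands after the values were seen. It was found in 2 of the 28 genes with a window, *ABCA1* and another window of *HMGCS1*, where 0.78% of all genes with an entry hold it. The *ABCA1* window, shown because it holds this repeat, is chr9:104928106-104928405 on the minus strand. Capitals mark the repeat, which lies on the strand opposite to the gene from −69 to −55 relative to the start.
ABCA1 promoter: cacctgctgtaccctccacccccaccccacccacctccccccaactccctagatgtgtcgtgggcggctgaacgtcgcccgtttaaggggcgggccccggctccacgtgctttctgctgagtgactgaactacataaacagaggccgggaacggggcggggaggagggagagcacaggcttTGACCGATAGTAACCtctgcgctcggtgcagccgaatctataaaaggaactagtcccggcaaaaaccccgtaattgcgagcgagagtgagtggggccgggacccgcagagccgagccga

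Leaving out Amuc_0904 replicate 1, which leaves 2 treated libraries, moved the synthesis counts the most. Without it 7 of the 31 genes rose, *ACAT2*, *HMGCS1*, *IDI1*, *FDPS*, *FDFT1*, *SQLE* and *EBP*, all of them synthesis enzymes, and 6 fell, *TM7SF2*, *MYLIP*, *ABCA1*, *ABCG1*, *NR1H3* and *SOAT1*. Over all tested genes 9.34% rose and 8.85% fell in that fit, so that calls were common well beyond cholesterol genes. *ACAT2* then had a log2 difference of 0.69 (limma adjusted p = 8.24e-04), *SQLE* 0.41 (limma adjusted p = 0.00144), *IDI1* 0.36 (limma adjusted p = 0.00384) and *HMGCS1* 0.31 (limma adjusted p = 0.00527). *ABCG1* had −1.43, *ABCA1* −0.68 and *MYLIP* −0.44 (limma adjusted p = 0.00109, 0.0237 and 0.0123). The median log2 difference moved from 0.15 to 0.30 for the mevalonate genes, from 0.02 to 0.09 for the sterol genes (−0.01 with quantile normalization of all 6 libraries) and from −0.33 to −0.42 for efflux and storage. The mevalonate median was 0.06 without replicate 2 and 0.10 without replicate 3, so each treated library moved it by more than 1.5 times.

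**Figure D4:**
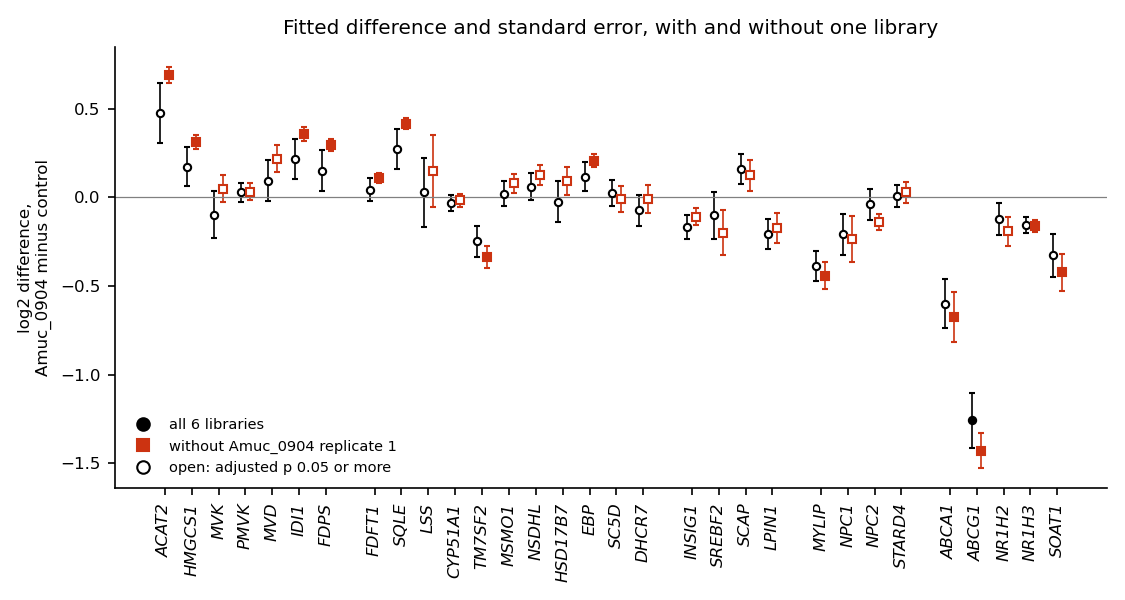
Fitted log2 difference (Amuc_0904 minus control) of each tested gene with its standard error, from all 6 libraries (circles) and without Amuc_0904 replicate 1 (squares). Filled symbols passed an adjusted p under 0.05. With all libraries only *ABCG1* is filled, and without replicate 1 a further 7 genes above 0 and 5 below 0 are.

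Another 39 genes of the pathway were read from the same fit, of which 33 were tested and 0 rose and 0 fell. At an unadjusted p under 0.05, 3 of the 33 were higher and 3 lower, shares near or little above the 9.95% and 5.87% of all tested genes, and the median log2 difference was −0.03. The smallest p belonged to *SREBF1*, which encodes SREBP-1, the form that drives fatty acid synthesis, and is a known target of the liver X receptors. It measured 101.9, 104.2 and 101.9 TPM in the controls and 75.4, 61.1 and 56.3 TPM in the treated libraries. The groups were far apart relative to the spread of the controls, with replicate 1 the nearest (log2 difference −0.68, standard error 0.10, limma adjusted p = 0.0761). *RNF145*, a ubiquitin ligase of the sterol sensing system, and *GRAMD1A*, which carries plasma membrane cholesterol inward, were the other 2 lower genes (log2 difference −0.22 and −0.34, limma adjusted p = 0.281 and 0.258).

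The higher genes included *SCARB1*, the receptor that exchanges cholesterol with high-density lipoprotein, and *NFYC*, a subunit of NF-Y. *SCARB1* measured 24.0, 23.8 and 23.1 TPM in the controls and 26.0, 31.1 and 31.2 TPM with Amuc_0904 (log2 difference 0.30, limma adjusted p = 0.232). *NFYC* measured 32.8, 32.9 and 32.7 TPM in the controls and 39.8, 36.3 and 37.0 TPM with Amuc_0904 (log2 difference 0.20, limma adjusted p = 0.238). In both genes all treated libraries lay above all controls, replicate 1 included. The plot of group medians sets these genes beside the 5 role groups, and shows the mevalonate genes split by library and the efflux genes below the controls in every treated library.

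**Figure D5:**
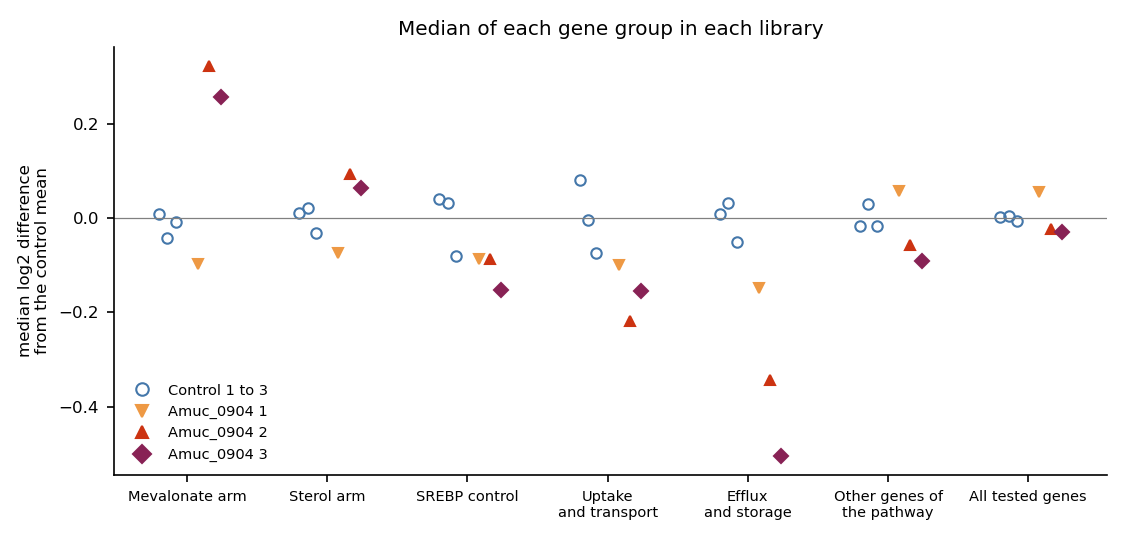
Median log2(TPM + 1) difference from the control mean (vertical axis) of each gene group in each library. Open circles are controls, and filled symbols are Amuc_0904 replicates 1, 2 and 3. The mevalonate median is −0.10 in replicate 1 against 0.32 and 0.26 in replicates 2 and 3, and the efflux and storage median is −0.15, −0.34 and −0.50.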

How the data were processed

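RNA was sequenced from 6 HT-29 libraries, 3 per group. Per the labels and methods, the authors used SeqPrep and Sickle for trimming, HISAT2 for alignment and StringTie for assembly (RSEM and edgeR are also named, none with a version), and deposited TPM per gene. The notes name a mouse build while the identifiers are human, so the build behind the values is not known. The dose of 0.5 μM and the 72 h are those the study gives for its RNA-seq. The 25 lines holding only spilled annotation text were left out.

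The 14333 genes at 1 TPM or more in 3 or more libraries entered a two-sided limma fit of log2(TPM + 1) (version 3.58.1 in R 4.3.3, mean-variance trend, robust empirical Bayes, condition only), with Benjamini-Hochberg adjustment over them. A gene rose or fell at an adjusted p under 0.05. Exact permutation of 3 against 3 cannot go below 0.1, so none is given. The procedure was tested on simulated data.

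All 32 genes are described. Of the 39 other pathway genes, those among the 6 with the smallest p are named, except 1 not reported here. The 39 other pathway genes, the lists and the motifs were chosen with earlier results of these data known. Positions are from GENCODE on GRCh38, promoters from RefSeq. Alternatives changed the pseudocount, filter, weights, scaling, replicate block and libraries.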

Additional observations from a re-analysis of the deposited data

How the results depend on the processing

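Over 14 alternatives, 377 of 433 values of single cholesterol genes kept direction and side of the threshold, 23 came to pass it with the same direction, 7 no longer passed it, all of *ABCG1*, and 26 changed sign, in 10 genes with log2 differences near 0. *ABCA1* had no value under the filter of 1 TPM in all 6 libraries. TPM are without counts, so what depth limits is unknown, and 3 libraries a group leave small differences unresolved. The cause of the changes below was not tested, other than that each omission leaves fewer libraries.

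With array weights, which gave Amuc_0904 replicate 1 the lowest weight of 0.224, 6 cholesterol genes rose and 6 fell, as did 1315 and 1056 of all genes and 4 and 4 of the other pathway genes. With no filter on low values, 0 cholesterol genes fell by limma (adjusted p = 0.156 for *ABCG1*), and over all genes 3 rose and 15 fell. With the filter of 1 TPM in all 6 libraries 5 of all genes rose, and with median-of-ratios scaling 6 rose and 1 other pathway gene fell. Same-numbered libraries of the groups did not deviate together (correlations of 0.046, −0.039 and −0.005). Differently numbered libraries gave values of the same size (−0.042 to 0.054). With 3 libraries a group, these values cannot settle whether the numbers pair the libraries. With a replicate block, 0 cholesterol genes fell and 5 of all genes rose.

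Leaving out 1 library at a time gave 0 to 7 cholesterol genes that rose and 0 to 6 that fell, 2 to 1338 and 10 to 1269 of all genes, and 0 to 3 and 0 to 7 of the other pathway genes. The upper end of each range came without Amuc_0904 replicate 1. The median log2 difference ranged from 0.0581 to 0.295 for the mevalonate genes, from 0.00924 to 0.119 for all synthesis enzymes, from −0.023 to 0.0919 for the sterol genes and from −0.191 to −0.0762 for SREBP control. The log2 difference of single genes changed sign in some fits for 9 genes, ranging from −0.177 to 0.0498 for *MVK*, −0.0159 to 0.217 for *MVD*, −0.108 to 0.225 for *LSS*, −0.023 to 0.0789 for *MSMO1*, −0.106 to 0.0919 for *HSD17B7*, −0.0412 to 0.0619 for *SC5D*, −0.224 to 0.00579 for *SREBF2*, −0.139 to 0.0362 for *NPC2* and −0.0327 to 0.0441 for *STARD4*.

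Under the other alternatives, these log2 differences changed sign. With array weights they were 0.0187 for *MVK*, 0.0652 for *HSD17B7* and −0.00325 for *SC5D*. With quantile normalization they were −0.00283 for *FDFT1*, −0.0155 for *MSMO1*, −0.0107 for *SC5D* and −0.0051 for *STARD4*. With TPM rescaled without mitochondrial genome genes they were −0.00512 for *MSMO1*, −0.00129 for *SC5D* and −0.0185 for *STARD4*.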

Other observations

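Further known targets of the liver X receptors, a list of 8 genes chosen after the values of *ABCA1*, *ABCG1* and *MYLIP* were seen, were read from the same fit as a description. Of the 6 tested, 5 had lower means with Amuc_0904, 0 passed the adjusted p, and the median log2 difference was −0.31. Over all 14333 tested genes, 7108 had lower means and 7225 higher. *PLTP*, the phospholipid transfer protein, measured 6.08, 5.72 and 6.22 TPM in the controls and 4.52, 2.76 and 3.16 TPM with Amuc_0904, without overlap (log2 difference −0.66, limma adjusted p = 0.212). *LPCAT3*, an acyltransferase that builds polyunsaturated phospholipids, measured 45.5, 45.7 and 43.5 TPM in the controls and 38.0, 39.2 and 35.8 TPM with Amuc_0904, also without overlap (log2 difference −0.25, limma adjusted p = 0.212). *SREBF1*, described above, is on this list as well. *TTC39B* had a lower mean with overlap between the groups (log2 difference −0.37, limma adjusted p = 0.315) and *SMPDL3A* was at −0.02. *ABCG5* and *ABCG8*, the sterol exporters of the intestinal brush border, were at 0.07 TPM or less in all 6 libraries.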
